A study of Homo sapiens with 6 samples.

Results

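The J-domain genes examined here are the 45 protein-coding genes of the RefSeq GRCh38 annotation whose symbol starts with DNAJ, of 19974 protein-coding genes on chromosomes 1 to 22 and X. By symbol, 4 belong to class A, 12 to class B and 29 to class C, and they occupy 44 loci, because DNAJC25 and its readthrough gene DNAJC25-GNG10 share a start. The rule read symbols and no measured value. Open chromatin was mapped by ATAC-seq, which marks DNA that the Tn5 transposase can reach, in Huh7, an established hepatocellular carcinoma line. All 6 libraries came from cells with ARID1A knocked out, ARID1A being a subunit of the SWI/SNF chromatin remodelling complex, and all received a Flag-tagged ARID1A by lentivirus. The added copy carried the missense change V2084D in 4 libraries, of which 2 also had a short hairpin against STUB1 (V2084D shSTUB1) and 2 did not (V2084D), and it was wild type in the remaining 2 (WT). No label says whether the V2084D and WT cells carried a control hairpin, whether the lines were clones or whether the 2 libraries of a group came from separate cultures.

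J-domain proteins are the partner chaperones that bring unfolded clients to HSP70 and stimulate its ATP hydrolysis through their J domain, so that each of them sends HSP70 to a place or a task in the cell. Class A proteins carry a J domain, a glycine- and phenylalanine-rich stretch and a zinc-binding region, class B proteins lack the zinc-binding region, and class C proteins share little beyond the J domain. STUB1, also called CHIP, is a ubiquitin ligase that docks on HSP70 and HSP90 and marks their clients, which ties the knocked-down gene to the same chaperone cycle.

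Each library came with its own list of peaks, and a gene was scored as having a gene-end peak when a peak of that library reached within 1000 bp of either annotated end of the gene. The lists held 21728 and 15326 summits in V2084D shSTUB1, 9231 and 30768 in V2084D, and 10441 and 7401 in WT, at relative depths of 1.49 and 1.23, 1.17 and 1.70, and 1.01 and 1 in the same order. A summit rested on a median of 8 to 12 reads per library, and the lack of a peak in a library says only that none was called there. V2084D replicate 2 therefore had both the longest list and the greatest depth, and WT replicate 2 the shortest list and the lowest depth. The counts below carry no p-value, since 2 libraries against 2 cannot give a small exact permutation p. They are set beside the share of all protein-coding genes that met the same criterion in the same libraries. Markers of the labelled liver cell type were mostly without gene-end peaks: 3 of 13 hepatocyte genes had one in any library (APOA1, FOXA1 and CEBPA), while ALB, AFP and HNF4A had none. Of the markers of other cells, 1 of 5 leukocyte genes (SPI1), 1 of 3 endothelial genes (KDR) and 1 of 4 fibroblast genes (COL1A1, in all 6 libraries) had a gene-end peak. STUB1 had no gene-end peak in any library, and peaks do not show whether the hairpin lowered its RNA.

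The 250 bases before the start of 6 members are shown, because the results below turn on where peaks lie relative to these starts. DNAJB1 is the inducible partner of cytosolic HSP70 and the one whose listed starts all lie over 1000 bp from the annotated ends. DNAJB4 had the highest mean rank among recurrent gene-end peaks of the family, DNAJB2 and DNAJC28 had peaks in the V2084D-carrying libraries and not in WT, DNAJB11 had peaks in WT and not in V2084D shSTUB1, and DNAJB7 had no peak within 1000 bp and the lowest CpG content. Sequences are RefSeq GRCh38.p14, 5′ to 3′ on the strand of the gene, and capitals mark motif matches on either strand. The motifs searched were GAANNTTC and its mirror TTCNNGAA (units of the heat shock element), CCAAT (bound by NF-Y), GGGCGG (the GC box), CCGGAAG (a core of ETS-family sites), TGACGTCA (the cyclic AMP response element), TGACGTG (part of an unfolded protein response element) and GCGCATGC (part of the NRF1 site). The sequences lie at chr19:14518398-14518647 (minus strand) for DNAJB1, chr1:77978925-77979174 (plus) for DNAJB4, chr2:219279116-219279365 (plus) for DNAJB2, chr21:33491402-33491651 (minus) for DNAJC28, chr3:186570470-186570719 (plus) for DNAJB11 and chr22:40862114-40862363 (minus) for DNAJB7.
DNAJB1: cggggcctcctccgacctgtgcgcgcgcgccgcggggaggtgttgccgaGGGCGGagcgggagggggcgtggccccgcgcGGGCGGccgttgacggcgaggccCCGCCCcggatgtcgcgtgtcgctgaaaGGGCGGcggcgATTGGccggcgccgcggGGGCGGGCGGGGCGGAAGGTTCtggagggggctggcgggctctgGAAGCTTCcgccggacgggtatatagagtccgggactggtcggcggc
DNAJB4: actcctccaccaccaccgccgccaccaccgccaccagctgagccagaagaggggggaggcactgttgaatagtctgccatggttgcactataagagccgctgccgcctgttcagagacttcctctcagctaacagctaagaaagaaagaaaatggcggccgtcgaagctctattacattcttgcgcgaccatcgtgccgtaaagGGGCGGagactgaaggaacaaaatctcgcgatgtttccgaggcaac
DNAJB2: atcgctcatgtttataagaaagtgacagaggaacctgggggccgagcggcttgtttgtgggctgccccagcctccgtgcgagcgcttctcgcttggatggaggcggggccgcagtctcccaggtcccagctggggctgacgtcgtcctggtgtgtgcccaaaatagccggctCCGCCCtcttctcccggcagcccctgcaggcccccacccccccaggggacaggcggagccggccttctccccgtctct
DNAJC28: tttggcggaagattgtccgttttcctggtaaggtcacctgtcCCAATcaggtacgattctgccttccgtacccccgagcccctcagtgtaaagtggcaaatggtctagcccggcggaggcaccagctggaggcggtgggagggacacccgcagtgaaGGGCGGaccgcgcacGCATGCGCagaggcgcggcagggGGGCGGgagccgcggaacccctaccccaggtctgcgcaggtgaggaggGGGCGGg
DNAJB11: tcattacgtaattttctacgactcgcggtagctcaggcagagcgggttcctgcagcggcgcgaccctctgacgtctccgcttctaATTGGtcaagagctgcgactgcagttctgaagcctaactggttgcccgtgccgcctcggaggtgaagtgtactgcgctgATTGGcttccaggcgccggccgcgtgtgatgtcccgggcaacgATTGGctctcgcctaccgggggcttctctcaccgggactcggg
DNAJB7: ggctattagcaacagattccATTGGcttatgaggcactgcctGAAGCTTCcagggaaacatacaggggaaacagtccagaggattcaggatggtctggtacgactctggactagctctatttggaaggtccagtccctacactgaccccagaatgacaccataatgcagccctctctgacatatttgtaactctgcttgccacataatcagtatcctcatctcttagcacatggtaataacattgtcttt

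DNAJ genes had a gene-end peak more often than protein-coding genes as a whole in each of the 6 lists. In the V2084D shSTUB1 libraries, 30 of 45 DNAJ genes had one in each replicate (66.7% in both), against 48.1% of all genes in replicate 1 and 40.6% in replicate 2. In the V2084D libraries the counts were 24 (53.3%, against 31.1% of all genes) in replicate 1 and 33 (73.3%, against 54.7%) in replicate 2. In the WT libraries they were 23 (51.1%, against 32.3%) and 20 (44.4%, against 24.2%). The share of DNAJ genes was 1.34 to 1.84 times that of all genes, lowest in the longest list and highest in the shortest. V2084D replicate 1 had a shorter list than WT replicate 1, a greater depth (1.17 against 1.01) and 1 more DNAJ gene. The part of list length and depth in this difference was not tested. The 2 V2084D libraries stood above and below both V2084D shSTUB1 libraries, and all 4 stood above both WT libraries, V2084D replicate 1 by 1 gene over WT replicate 1. With every list cut to its strongest 7234 summits this order was gone: the counts were 18 and 18 in V2084D shSTUB1, 23 and 17 in V2084D, and 17 and 20 in WT, against 24.2% to 26.5% of all genes.

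**Figure D1:**
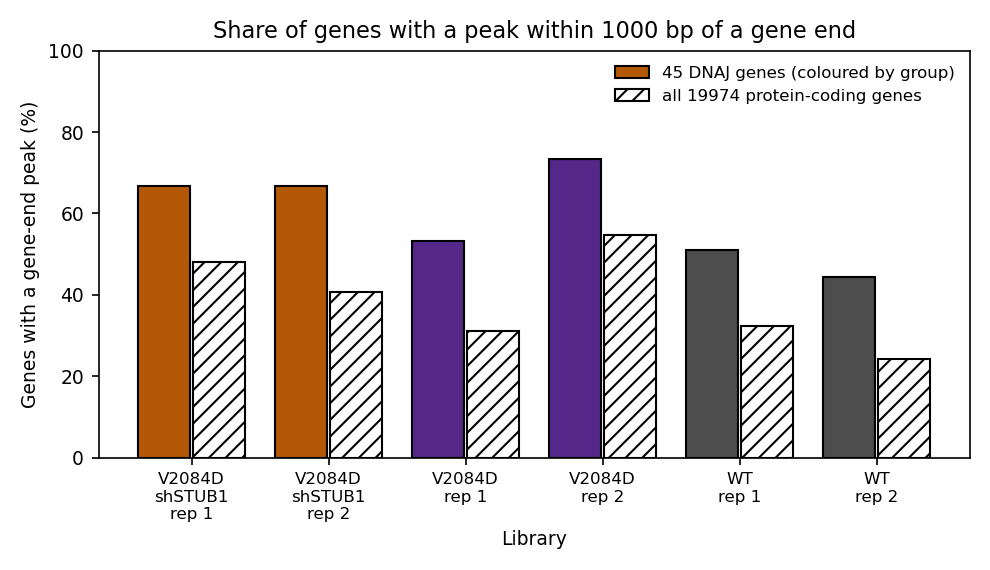
Share of genes with a peak within 1000 bp of a gene end (vertical axis, percent) in each library (horizontal axis). Filled bars are the 45 DNAJ genes, coloured by group, and hatched bars all 19974 protein-coding genes; the filled bar is the taller one in every library, from 66.7% against 48.1% in V2084D shSTUB1 replicate 1 to 44.4% against 24.2% in WT replicate 2.

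Recurrence across libraries showed the same contrast. Of the 45 DNAJ genes, 17 (37.8%) had a gene-end peak in every library, compared with 15.8% of all protein-coding genes, and 11 (24.4%) had none in any library, compared with 41.8%. The median DNAJ gene had a peak in 4 libraries and the median protein-coding gene in 2. Between these ends, 1, 3, 4, 6 and 3 members had a peak in 1, 2, 3, 4 and 5 libraries. The excess at 6 libraries was smaller or gone when weaker peaks were left out. With only peaks of −log10 q of at least 5, 1 member (DNAJB4) and 3.18% of all genes remained in all 6 libraries, and with every list cut to its strongest 7234 summits, 5 members (DNAJB4, DNAJB9, DNAJB12, DNAJC3 and DNAJC27) and 8.41% of all genes remained. The count of members with no peak moved less, to 13 of 45 (54.4% of all genes) and 15 of 45 (56.7%) under these settings.

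**Figure D2:**
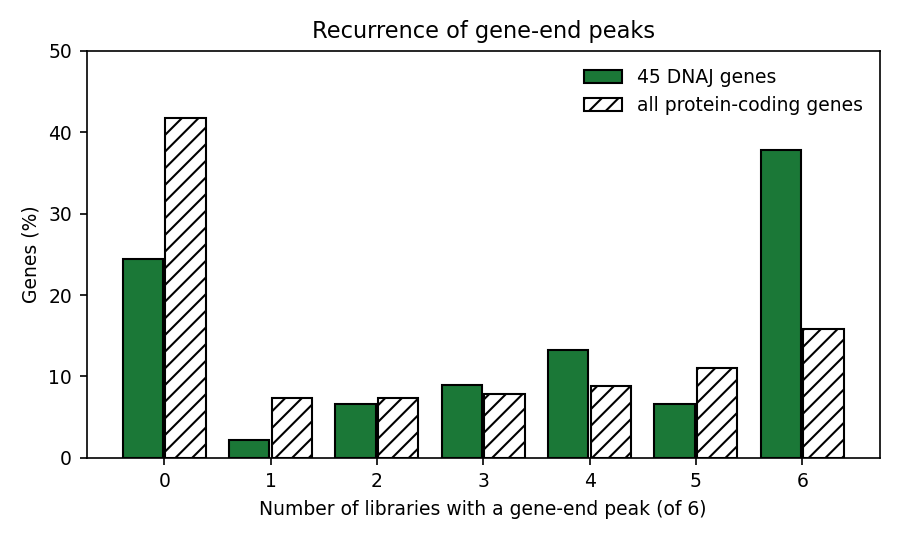
Percent of genes (vertical axis) by the number of libraries, of 6, in which they had a gene-end peak (horizontal axis), for the 45 DNAJ genes (filled) and all protein-coding genes (hatched). DNAJ genes stand at 37.8% against 15.8% at 6 libraries and at 24.4% against 41.8% at none.

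By class, 1 of 4 class A genes (25.0%), 4 of 12 class B genes (33.3%) and 12 of 29 class C genes (41.4%) had gene-end peaks in every library, against 15.8% of all genes. None in any library was found for 1, 5 and 5 genes (25.0%, 41.7% and 17.2%), against 41.8% of all genes. On this count alone class B stood at the share of all genes, and its 5 genes include DNAJB1, which had peaks at its starts. The median number of libraries was 4 for class A, 2.5 for class B and 4 for class C. Class B counts were alike in most libraries, with 5 and 6 genes in V2084D shSTUB1, 5 and 7 in V2084D, and 5 and 5 in WT. Class C counts were 22 and 21 in V2084D shSTUB1, 17 and 23 in V2084D, and 16 and 14 in WT, and class A counts 3 and 3, 2 and 3, and 2 and 1 in the same order. Of all genes, 48.1% and 40.6%, 31.1% and 54.7%, and 32.3% and 24.2% had a gene-end peak in these libraries. The part of list length and depth in these counts was not tested by class. With 4 to 29 members a class, no difference between classes was tested.

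Members were also counted by where their proteins work, in small sets with no test, beside the 15.8% of all genes that had peaks in every library. The sets were drawn up by hand and are not complete lists of a compartment. In the endoplasmic reticulum J-domain proteins partner the HSP70 family member BiP in folding and in the disposal of misfolded proteins. Of the 9 genes assigned to that compartment, 6 (DNAJB9, DNAJB12, DNAJC3, DNAJC10, DNAJC16 and DNAJC25) had gene-end peaks in all 6 libraries and 1 (DNAJB14) had none. Of the 7 cytosolic HSP70 partners, 4 (DNAJA1, DNAJB4, DNAJB5 and DNAJC7) had peaks in all 6 and 2 (DNAJA4 and DNAJB1) had none, and of the 3 nuclear genes, 2 (DNAJC9, a histone chaperone, and DNAJC17) had peaks in all 6. None of the 5 mitochondrial genes did: DNAJC19, part of the protein import motor, had peaks in 5 libraries, DNAJC30 in 4, DNAJA3 in 3, and DNAJC11 and DNAJC15 in none. Of the 5 vesicle and endosome genes, DNAJC13 had peaks in all 6 libraries, DNAJC6 (auxilin, which uncoats clathrin vesicles) in 5, DNAJC5 in 3, and DNAJC5B and DNAJC5G in none. The ribosome-linked genes DNAJC21 and DNAJC2 had peaks in 4 and 2 libraries. Of the aggregation suppressors, DNAJB2 had peaks in 4, DNAJB6 in 2 and DNAJB8 in none, and the axonemal DNAJB13 had none. Among the other 10 members, DNAJC18, DNAJC24, DNAJC25-GNG10 and DNAJC27 had peaks in all 6 libraries, DNAJC14 and DNAJC28 in 4, DNAJC4 in 3, DNAJC22 in 1, and DNAJB7 and DNAJC12 in none.

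Genes of the wider chaperone cycle were counted in the same way, with no test. Of all protein-coding genes, 15.8% had gene-end peaks in every library and 41.8% had none. Of 14 HSP70-family genes, 6 (42.9%: HSPA4, HSPA5, HSPA9, HSPA13, HSPA14 and HSPH1) had gene-end peaks in all 6 libraries and 3 (21.4%: HSPA1A, HSPA1L and HSPA2) had none. HSPA1A and HSPA1B are near-identical copies, between which reads can be divided or discarded. Of 13 HSP70 partners, which include nucleotide exchange factors of the BAG family, 6 (46.2%) had peaks in all 6 libraries and STUB1 alone (7.69%) had none. Among genes with a J domain and another symbol, HSCB, which works with mitochondrial HSP70 in iron-sulphur cluster assembly, had peaks in all 6, GAK in 5 and SEC63 in 3.

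**Figure D3:**
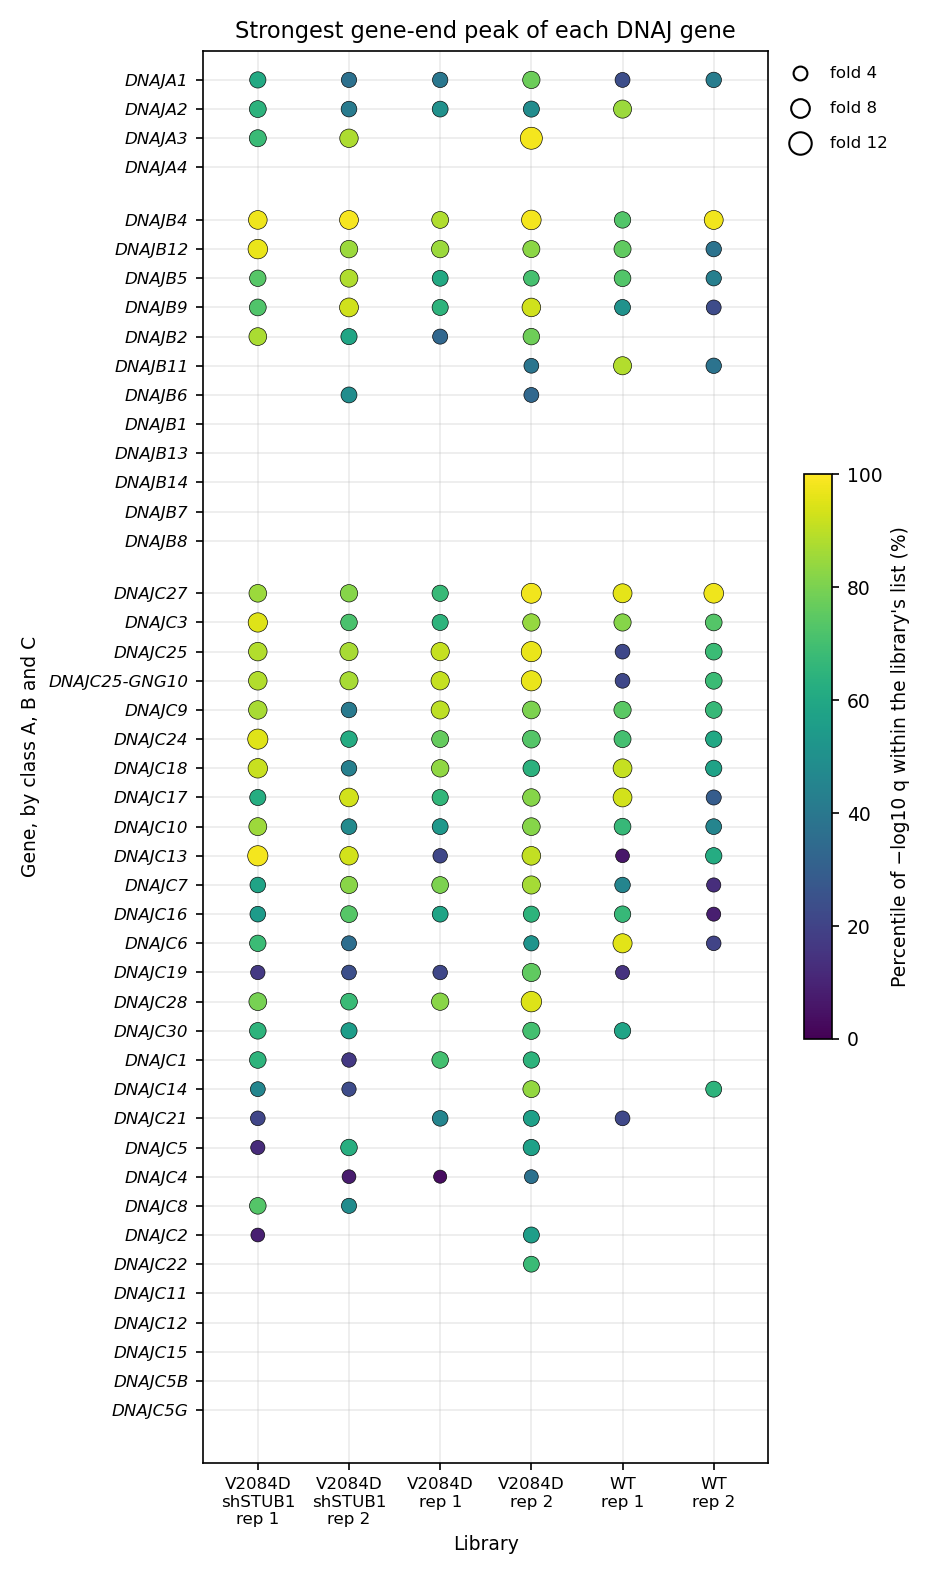
Strongest gene-end peak of each DNAJ gene (rows, by class and then by recurrence) in each library (columns). Point size is the authors' fold over local background and colour is the percentile of −log10 q within that library's list, and a gap means that no peak was called; rows such as DNAJB4 and DNAJC27 are filled in all 6 columns and DNAJB2, DNAJC1 and DNAJC28 in the left 4.

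Strength was read only within a list, as the percentile of a summit's −log10 q among all summits of that library. Values of different lists are given side by side as a description, since fold, reads and percentile also move with depth and list length. The share of all genes whose folds separated between groups, as at some members below, was not computed. The 160 member peaks were 200 to 1359 bp wide (median 432.5 bp), had folds of 3.52 to 11.5 over the local background, as the authors' caller gave them, and rested on 4 to 31 reads at the summit (median 11). Peaks at the shared start of DNAJC25 and its readthrough gene were counted for each of these genes. Among the 17 recurrent members, DNAJB4, a cytosolic HSP70 partner, ranked highest, with a mean percentile of 92.1. Its folds were 8.04 and 8.19 in V2084D shSTUB1, 6.40 and 8.94 in V2084D, and 6.03 and 8.33 in WT, at percentiles from 72.9 to 98.8, and the groups overlapped. The peak lay on the start shown above, with 5 of 6 summits at −16 to 52 bp from it, and also within 1000 bp of an end of FUBP1, so it cannot be given to either gene alone. DNAJC27, which joins a small GTPase domain to a J domain, followed with a mean percentile of 87.6 and folds of 7.08 and 6.86 in V2084D shSTUB1, 5.91 and 9.26 in V2084D, and 8.33 and 9.0 in WT. The V2084D values spanned those of the other groups, and both V2084D shSTUB1 folds were below both WT folds, at percentiles of 85.1 and 81.9 in V2084D shSTUB1 and 95.9 and 97.4 in WT.

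Among the members with peaks in all 6 libraries, the next 3 peaks by mean percentile lay at genes of the endoplasmic reticulum. DNAJC3, a lumenal chaperone that binds unfolded proteins, had a mean percentile of 78.3 with folds of 8.62 and 6.19 in V2084D shSTUB1, 5.79 and 6.82 in V2084D, and 6.73 and 6.32 in WT. DNAJB12, a membrane protein that takes part in clearing misfolded membrane proteins, had a mean percentile of 77.0 with folds of 8.87 and 7.01 in V2084D shSTUB1, 6.90 and 6.56 in V2084D, and 6.59 and 5.23 in WT. At DNAJC3 the groups overlapped in fold. At DNAJB12 both V2084D shSTUB1 folds exceeded those of the other 4 libraries, while the percentiles overlapped, at 96.6 and 84.8 in V2084D shSTUB1 and 84.9 and 82.6 in V2084D. DNAJC25 and its readthrough gene share 1 peak, of mean percentile 75.5, whose folds were 7.92 and 7.53 in V2084D shSTUB1, 7.69 and 9.54 in V2084D, and 4.71 and 6.34 in WT. Here the 4 V2084D-carrying libraries did not overlap with WT, at 11 to 24 reads against 7 and 8 reads, in deeper libraries. Another gene of this compartment, DNAJB9, a BiP partner induced by misfolded proteins, had a lower mean percentile of 66.1 and folds of 6.36 and 8.25 in V2084D shSTUB1, 5.79 and 8.0 in V2084D, and 5.62 and 4.79 in WT, on a peak shared with THAP5. Its reads were 13 and 15, 10 and 23, and 9 and 6 in that order, and both V2084D shSTUB1 and both V2084D libraries stood above both WT libraries in fold as well as in reads and depth.

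Of the remaining cytosolic members in all 6 libraries, DNAJB5 had a mean percentile of 68.0 and DNAJC7 of 61.0, and DNAJA1 was lower. DNAJA1, the constitutive class A partner of HSP70 and the only class A member in all 6 libraries, had a mean percentile of 46.7 and folds of 5.88 and 5.10 in V2084D shSTUB1, 5.17 and 6.80 in V2084D, and 4.82 and 5.26 in WT, on a peak shared with APTX. DNAJB5 had folds of 6.02 and 7.21 in V2084D shSTUB1, 5.61 and 5.41 in V2084D, and 6.25 and 5.14 in WT, with summits at −676 to −339 bp from its listed start in all 6 libraries. That listed start lies 545 bp inside the annotated gene, and the summits lay nearer to the annotated 5′ end. DNAJC7, which binds both HSP70 and HSP90, had folds of 5.38 and 6.70 in V2084D shSTUB1, 6.31 and 7.52 in V2084D, and 5.29 and 4.29 in WT, on a peak shared with NKIRAS2. As at DNAJC25 and DNAJB9, both V2084D shSTUB1 and both V2084D libraries, which were deeper, stood above both WT libraries in fold. DNAJB6, a strong suppressor of polyglutamine aggregation, had 1 peak call in V2084D shSTUB1 (replicate 2, fold 5.62, 8 reads) and 2 in V2084D, both in replicate 2 (fold 4.82 and 10 reads at the stronger), and none in WT. The V2084D shSTUB1 summit lay at −47 bp from the start, and those of V2084D at −12 bp and, for the stronger peak, at 944 bp. The other recurrent members (DNAJC9, DNAJC10, DNAJC13, DNAJC16, DNAJC17, DNAJC18 and DNAJC24) had mean percentiles from 54.5 (DNAJC16) to 73.3 (DNAJC9). DNAJC13, which works in endosomal sorting, ranged most widely among lists, with 98.2 in V2084D shSTUB1 replicate 1 and 5.89 in WT replicate 1. Across the family, 12 of the 34 members with a peak shared their strongest peak with another gene's end. Among them, DNAJC25 and its readthrough gene shared theirs only with each other.

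V2084D was set against WT to ask which J-domain genes had peaks with the missense protein and not with wild type. Both V2084D libraries had a gene-end peak, and no WT library did, at 4 of 45 members (8.89%), DNAJB2, DNAJC1, DNAJC4 and DNAJC28, against 5.07% of all protein-coding genes. The reverse pattern was found at 0 members, against 0.0501% of all genes. DNAJB2, a suppressor of aggregation that also binds ubiquitin, had folds of 7.20 and 5.85 (17 and 10 reads) in V2084D shSTUB1, 4.95 and 6.13 (8 and 19 reads) in V2084D and no peak in WT. DNAJC28 had folds of 7.22 and 6.32 (12 and 10 reads) in V2084D shSTUB1, 6.82 and 9.81 (8 and 20 reads) in V2084D and no peak in WT. DNAJC1, an endoplasmic reticulum membrane protein, had folds of 6.19 and 4.49 (11 and 7 reads) in V2084D shSTUB1, 6.17 and 5.95 (9 and 14 reads) in V2084D and no peak in WT. At these 3 genes all 4 V2084D-carrying libraries had a peak, the peaks of V2084D overlapped each other, and those 4 libraries were also deeper than both WT libraries. The part of depth in these calls was not tested. DNAJC28 had the highest percentiles of the 3, at 82.2 and 94.9 in V2084D. The DNAJC4 peaks of V2084D were weak, with folds of 3.52 and 4.03 (8 and 16 reads) at percentiles of 3.48 and 37.2. They lay at an end of NUDT22 as well. In V2084D shSTUB1, DNAJC4 had no peak in replicate 1 and a fold of 4.0 (7 reads) in replicate 2.

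This count depended on list length and on single libraries. With lists cut to equal length, 2 members (DNAJB2 and DNAJC28) were V2084D-only, against 1.97% of all genes, and 2 others (DNAJB11 and DNAJC6) were WT-only, against 1.74%. With V2084D replicate 1 left out the V2084D-only count was 9, against 18.9% of all genes, and with WT replicate 1 left out it was 7, against 12%. With V2084D replicate 2 left out, DNAJB11 and DNAJC6 were WT-only, against 3.49% of all genes.

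V2084D shSTUB1 was set against V2084D to ask what the STUB1 hairpin changed. The only member with a peak in both V2084D shSTUB1 libraries and neither V2084D library was DNAJC8, a spliceosome-associated protein, 1 of 45 (2.22%) against 0.365% of all genes, and 0 members showed the reverse, against 0.656% of all genes. DNAJC8 had folds of 6.2 and 5.0 (14 and 12 reads) in V2084D shSTUB1 and no peak in V2084D or WT. Its 2 peaks did not overlap and were 132 bp apart, with 1 summit at −8 bp and the other at 328 bp from the start. The DNAJC8 call was lost with lists of equal length and with peaks of −log10 q of at least 5. With V2084D replicate 2 left out, 6 members met the criterion, against 10.8% of all genes. The V2084D shSTUB1 replicate 2 peak that kept DNAJC4 out of the reverse pattern had a fold of 4.0 (7 reads). Its summit lay 3899 bp from the nearest listed start of DNAJC4, and the peak was also at an end of VEGFB. Measured from listed starts, DNAJC4 did show the reverse pattern, against 0.708% of all genes with a listed start.

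The comparison of V2084D shSTUB1 with WT shares its libraries with the comparisons above. A peak in both V2084D shSTUB1 libraries and neither WT library was found at 6 members (13.3%), against 7.07% of all genes. They were DNAJB2, DNAJC1 and DNAJC28 again, DNAJC8, and DNAJA3 and DNAJC5, both of which also had a peak in V2084D replicate 2. DNAJA3, a mitochondrial partner of HSP70, had folds of 6.55 and 7.83 (10 and 12 reads) in V2084D shSTUB1, none and 11.5 (23 reads) in V2084D, and no peak in WT, and the value of 11.5 was the highest fold of any member peak. DNAJC5, the cysteine string protein of secretory vesicles, had folds of 4.27 and 6.17 (6 and 9 reads) in V2084D shSTUB1, none and 6.0 (11 reads) in V2084D, and no peak in WT. With lists of equal length, 3 members (DNAJA3, DNAJB2 and DNAJC28) met the criterion, against 1.75% of all genes.

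One member went the other way. DNAJB11, a lumenal BiP partner that binds newly made secretory proteins, was the 1 member (2.22%, against 0.135% of all genes) with no peak in V2084D shSTUB1 and one in both WT libraries. The WT libraries were the shallowest, and the part of depth in this call was not tested. DNAJB11 had no peak in V2084D shSTUB1, none in replicate 1 and a fold of 4.74 (12 reads) in replicate 2 of V2084D, and folds of 7.53 and 5.23 (13 and 8 reads) in WT. The peak in WT replicate 1 stood at the 88.3 percentile of its list, the one in WT replicate 2 at 37.9. Summits lay at −37 bp from the start in V2084D and at −260 and −54 bp in WT, within the sequence shown above or next to it, and the peak also lay at an end of TBCCD1. With lists of equal length DNAJB11 still met the criterion, but so did 1.75% of all genes. The call was lost with peaks of −log10 q of at least 5, since the −log10 q of the peak in WT replicate 2 was 3.51.

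DNAJB1, the heat-inducible partner of HSP70, was among the members with no gene-end peak, yet it had peaks at its starts. The annotated gene runs from 14514769 to 14560391 on chromosome 19 (45623 bp, minus strand, GRCh38.p14), and its 3 listed starts at 14517937, 14518397 and 14529271 lie 3168 to 14502 bp inside the nearer gene end. Within 1000 bp of the start at 14518397, whose upstream sequence is shown above, the strongest peak had folds of 5.28 and 7.92 (12 and 15 reads) in V2084D shSTUB1, 5.0 and 8.33 (8 and 24 reads) in V2084D, and 7.55 and none (15 reads) in WT. The strongest peak was not the same region in each library. Its summit lay within 200 bp of that start in both V2084D shSTUB1 libraries and in V2084D replicate 2, and at −521 bp in V2084D replicate 1 and −540 bp in WT replicate 1. Both V2084D shSTUB1 libraries also had a separate upstream peak, at −631 to −422 bp (fold 5.28) in replicate 1 and −626 to −399 bp (fold 5.45) in replicate 2. The V2084D replicate 2 peak spanned both places, from −613 to 501 bp. Around the start at 14529271 all 6 libraries had a peak, with folds of 7.5 and 9.0 in V2084D shSTUB1, 7.47 and 8.48 in V2084D, and 11.1 and 9.0 in WT. The percentiles there were 89.1 and 96.3 in V2084D shSTUB1, 90.9 and 89.6 in V2084D, and 99.3 and 97.4 in WT, each within its own list. That peak also lay within 1000 bp of a listed start of TECR, a gene that overlaps DNAJB1 in the annotation.

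**Figure D4:**
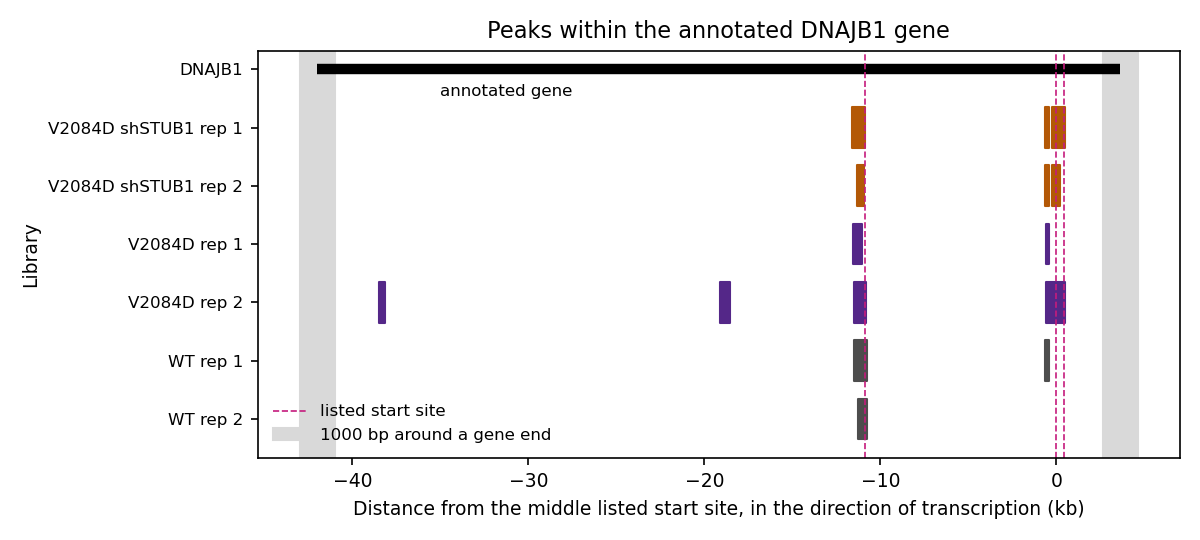
Peaks within the annotated DNAJB1 gene in each library (rows), by distance in kb from the middle listed start along the direction of transcription (horizontal axis). Dashed lines are listed starts, grey bands the 1000 bp on each side of a gene end; all 6 libraries have a peak at the upstream start, 5 have one at or just upstream of the middle start, and no peak falls in a grey band.

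Measured from listed starts in place of gene ends, 18 of the 41 members with a listed start (43.9%) had a peak within 1000 bp in all 6 libraries, against 17.6% of all genes with a listed start. DNAJB1 and DNAJC6 entered that count, and DNAJC24, which has no listed start, left it. DNAJC6 reached all 6 libraries through a start 44794 bp inside the gene, where V2084D replicate 1 had a peak of fold 6.40 and WT replicate 1, with a fold of 8.50 at the outer start, had none. Of the 149 member peaks at genes with a listed start, 112 (75.2%) had their summit within 250 bp of it, with the peaks of DNAJC25 again counted for its readthrough gene too.

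The other members with no gene-end peak differed in how far the nearest summit lay. It lay 2524 to 2834 bp from the nearer gene end in all 6 libraries at DNAJB7, 12540 to 12737 bp at DNAJB13 and 17172 to 17517 bp at DNAJA4. At DNAJB14 it lay 1725 to 3942 bp away in 5 libraries and 332535 bp away in WT replicate 2. DNAJC15 stood in the emptiest region, with distances from 31514 bp in V2084D shSTUB1 replicate 2 to 701444 bp in replicate 1 of the same group.

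Start-site sequence separated the members with and without peaks only in part. CpG content was taken as observed over expected CpG dinucleotides in the 300 bases from 250 before to 50 after the start. Its median was 0.838 in the 16 recurrent DNAJ genes with a listed start, 0.890 in the 15 with a peak in 1 to 5 libraries and 0.583 in the 10 with none, against 0.843, 0.821 and 0.382 for all protein-coding genes in those classes. Members with no gene-end peak fell at both ends of the range. DNAJB7 (0.0666), DNAJC12 (0.101), DNAJB13 (0.170) and DNAJB8 (0.278) were CpG-poor, whereas DNAJC11 (0.991), DNAJB14 (0.987) and DNAJC15 (0.891) stood as high as recurrent members such as DNAJA1 (1.06) and DNAJC3 (0.987). DNAJB1 (0.909) is in this class by its gene ends but had peaks at its starts.

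**Figure D5:**
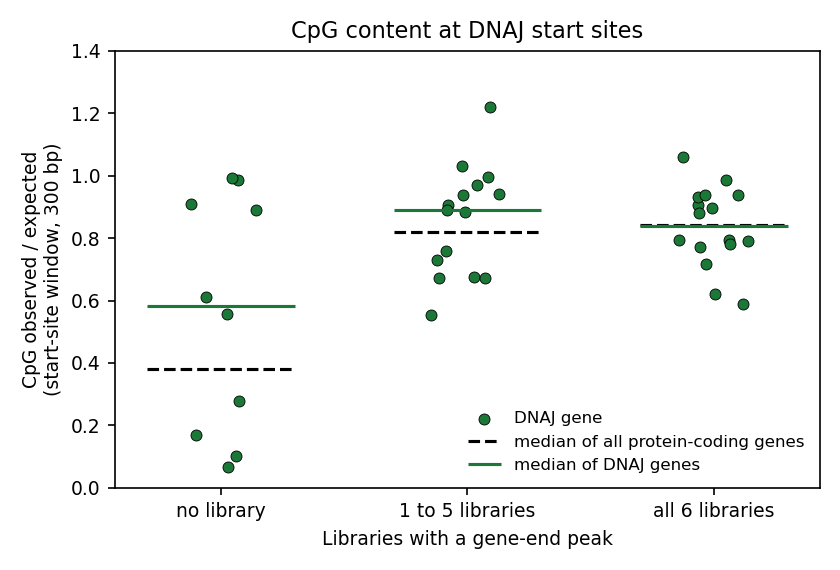
Observed over expected CpG in the 300 bp start-site window (vertical axis) of each DNAJ gene (points), by the number of libraries with a gene-end peak (horizontal axis, points spread sideways for sight only). Solid lines are medians of DNAJ genes and dashed lines medians of all protein-coding genes; recurrent DNAJ genes span 0.588 to 1.06 and those without a peak 0.0666 to 0.991.

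Motif letters were counted in the same windows, on both strands, as a description of sequence and not of binding. GAANNTTC occurred at 6 of 41 DNAJ genes (14.6%), against 7.39% of all 15812 genes with a window, and TTCNNGAA at 4 (9.76%, against 8.82%). The 6 genes were DNAJA1, DNAJA4, DNAJB1, DNAJB6, DNAJB7 and DNAJC6, which had gene-end peaks in 6, 0, 0, 2, 0 and 5 libraries. In the DNAJB1 sequence above GAANNTTC stands at −77 and −47 from the start, the match at −77 overlapping the last GC box. The ETS core CCGGAAG occurred at 13 genes (31.7%, against 16.5%), TGACGTG at 3 (7.32%, against 2.75%), of which DNAJC25 and its readthrough gene are 1 start, and GCGCATGC at 4 (9.76%, against 4.89%). CCAAT (17 genes, 41.5% against 42.1%), GGGCGG (25 genes, 61.0% against 64.2%) and TGACGTCA (1 gene, 2.44% against 3.0%) were about as frequent as in all genes. The DNAJB11 sequence above holds CCAAT on the opposite strand (ATTGG) at −165, −86 and −43.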

How the data were processed

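ATAC-seq peak lists of 6 Huh7 libraries, 2 in each of 3 groups, were analysed, with groups taken from sample titles. The submitters' processing notes name bedtools, Bowtie2, deepTools, MACS2, Picard, SAMtools, Trimmomatic and hg38, while versions and any shift to the Tn5 cut site are not given in these sources. The authors' deposited files are narrowPeak lists called per library. The deposited fold is a ratio of reads to local background, the deposited −log10 values are those of p and q-values, and the deposited score is the whole part of 10 times −log10 q.

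Genes and starts came from RefSeq GRCh38.p14. Presence, percentiles, motif matches and CpG content were computed in Python 3.11.15 with numpy 2.4.6, pandas 2.3.3 and scipy 1.17.1, checked on simulated lists. A peak counted with 1 bp in a window of 1000 bp. Whole reads were recovered from fold and p, assuming a pseudocount of 1, for 99.9892% to 100% of summits within a tolerance of 0.001 in −log10 p, and the lowest background gave relative depth. The members and lists were chosen with earlier results of these data known. Genes given in full were those in 1 group only, the top 3 by mean percentile per class among members in all 6 libraries, and DNAJA1, DNAJB1, DNAJB6, DNAJB9, DNAJB11, DNAJC3 and DNAJC7. The genes named with few values (DNAJA4, DNAJB7, DNAJB13, DNAJB14, DNAJC6 and DNAJC15 among them) were chosen after their values were seen. A gene of the lists is not reported here. No test was run. Alternatives were windows of 500 and 2000 bp, starts only, summits, stricter peaks, lists of equal length (7234 summits), each library left out and, added after seeing the data, merged peaks and gene ends with all starts.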

Additional observations from a re-analysis of the deposited data

How the results depend on the processing

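Of 157 values recomputed under an alternative, 129 stayed within 1.5 times the reported count, which does not require the same members. Windows of 500 and 2000 bp, summit positions, merged peaks and added starts moved none by more; merged peaks and added starts were chosen after seeing the data. Percents in brackets here are the share of all genes that met the same criterion under the same setting. Starts alone gave 1 V2084D-only member against V2084D shSTUB1 (DNAJC4, 0.708% of genes with a listed start). Peaks of −log10 q of at least 5 left 17 members (21.9%) in V2084D shSTUB1 replicate 2 and 9 (11.0%) in V2084D replicate 1. They left 14 (15.4%) and 6 (9.92%) in WT replicates 1 and 2. In all 6 libraries 1 member (3.18%) was left, with 0, 1 and 0 of classes A, B and C. These peaks also gave 2 V2084D-only members against WT (3.44%), DNAJC28 and DNAJC7, of which DNAJC7 was not V2084D-only at the main setting. There were 0 V2084D shSTUB1-only members against V2084D (0.466%) and 0 WT-only against V2084D shSTUB1 (0.17%). The V2084D shSTUB1-only count against WT was again 6 (6.11%), but only 3 of these (DNAJA3, DNAJB2 and DNAJC28) were in that set at the main setting. Lists of equal length left 18 and 18 members in V2084D shSTUB1, 23 and 17 in V2084D, and 17 and 20 in WT (24.2% to 26.5%). In all 6 libraries they left 5 (8.41%). Between V2084D and WT they gave 2 V2084D-only (1.97%) and 2 WT-only members (1.74%). Between V2084D shSTUB1 and V2084D they gave 0 V2084D shSTUB1-only (1.28%) and 1 V2084D-only (DNAJA1, 1.68%). Against WT, 3 members were V2084D shSTUB1-only (1.75%). With each library left out, counts ranged from 4 to 9 for V2084D-only (5.52% to 18.9%) and 0 to 2 for WT-only (0.0601% to 3.49%) against each other. They ranged from 1 to 6 for V2084D shSTUB1-only (0.446% to 10.8%) and 0 to 2 for V2084D-only (0.941% to 6.24%) against each other. V2084D shSTUB1-only against WT ranged from 7 to 9 (9.25% to 15.8%), all 6 libraries from 17 to 19 (15.8% to 21.7%), and none from 11 to 12 (41.9% to 46.7%). Stricter peaks and equal lists keep fewer peaks by construction. No paired analysis was possible because the results come from no test. Summits rested on few reads, so a missing peak does not show closed chromatin.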
